A study of Mus musculus with 3 samples.

Results

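Cycling macrophages were the macrophages of day 5 implants that held transcripts of the machinery for copying and dividing chromosomes. A rule on measured genes chose 726 such cells, out of 15308 macrophages, 21503 cells that passed the quality limits and 23219 barcodes in all. A macrophage had at least 2 of Csf1r, C1qa, Adgre1, Cd68 and Lyz2 detected and less than 1% of its UMIs (unique molecular identifiers, each standing for 1 captured transcript) from the stromal genes Col1a1, Col1a2, Col3a1, Dcn and Lum. A cycling macrophage had in addition at least 2 of the 6 genes Mki67, Top2a, Tk1, Nusap1, Pbk and Hist1h1b. Cells had 200 to 6000 genes and at most 5% mitochondrial UMIs. The other macrophages, 14582 cells, passed the same rule with 0 or 1 of the 6 cycle genes.

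The implants were Matrigel plugs, a basement membrane gel, placed under the abdominal skin of CD-1 female mice 6 to 8 weeks old and collected on day 5. In the Matrigel-only group the gel held no growth factor and nothing was given by mouth. In the Vehicle group the gel held recombinant human BMP2 (rhBMP2), which starts heterotopic ossification (HO), cartilage and bone forming outside the skeleton, and the mice received corn oil with DMSO. In the Palo group the gel held the same rhBMP2 and the mice received palovarotene, an agonist of retinoic acid receptor gamma, by gavage at 4 mg/kg each day. Masses were pooled into 1 droplet library per group, so the effects of a group, an animal and a library cannot be told apart. With 1 library per condition no test between conditions was made, and every interval below covers counting error only. The Matrigel-only library gave 309 cycling macrophages with 2099012 UMIs in sum, Vehicle 96 with 1041963, and Palo 321 with 2696150.

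Most tissue macrophages are held out of the cell cycle and can re-enter it in response to colony-stimulating factors, which act through receptors such as Csf1r. A cell that enters the cycle loads the MCM helicase onto its DNA in G1, copies the DNA in S phase with PCNA, polymerases and a supply of deoxynucleotides, and then builds the spindle and separates its chromosomes under cyclin B and CDK1 in G2 and M phase. S-phase genes are known targets of E2F factors, released when the retinoblastoma protein is phosphorylated, and many G2/M genes are held silent in resting cells by the DREAM complex, which binds a short element called the cell cycle genes homology region.

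To show these elements in genes measured here, 4 promoters are given, the 2 mitotic and 2 replication genes of highest level in the cycling macrophages whose promoter held, respectively, the homology region or the E2F letters. Each run covers 250 bases before to 50 bases after the start site in RefSeq, build GRCm38.p6, on the gene's own strand. Hmgb2, a chromatin protein of the high mobility group, lies at chr8:57511593-57511892 on the plus strand, and Ube2c, the ubiquitin-conjugating enzyme of the anaphase-promoting complex, at chr2:164769679-164769978 on the plus strand. Mcm6 and Mcm7, subunits of the replicative helicase, lie at chr1:128359656-128359955 and chr5:138171834-138172133, both on the minus strand. Capitals mark every match, on either strand, to the homology region (TTTGAA or TTCGAA), the CCAAT box (CCAAT) and the E2F letters (the runs TTGGCGC and TTCGCGC beside the runs TTCCCGC and TTTCCCG), and neighbouring matches can overlap.
Hmgb2: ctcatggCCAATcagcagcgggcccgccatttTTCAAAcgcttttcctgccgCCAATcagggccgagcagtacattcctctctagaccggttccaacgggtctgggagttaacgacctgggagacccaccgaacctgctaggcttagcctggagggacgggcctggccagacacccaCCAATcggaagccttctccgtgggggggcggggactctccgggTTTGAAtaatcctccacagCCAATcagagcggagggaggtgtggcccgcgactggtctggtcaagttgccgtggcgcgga
Ube2c: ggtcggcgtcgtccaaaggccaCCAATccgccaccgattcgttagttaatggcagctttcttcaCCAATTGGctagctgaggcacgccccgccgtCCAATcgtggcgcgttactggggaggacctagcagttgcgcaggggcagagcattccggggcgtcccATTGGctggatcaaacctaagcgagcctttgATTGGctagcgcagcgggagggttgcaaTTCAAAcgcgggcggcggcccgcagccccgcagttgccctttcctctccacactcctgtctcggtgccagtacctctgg
Mcm6: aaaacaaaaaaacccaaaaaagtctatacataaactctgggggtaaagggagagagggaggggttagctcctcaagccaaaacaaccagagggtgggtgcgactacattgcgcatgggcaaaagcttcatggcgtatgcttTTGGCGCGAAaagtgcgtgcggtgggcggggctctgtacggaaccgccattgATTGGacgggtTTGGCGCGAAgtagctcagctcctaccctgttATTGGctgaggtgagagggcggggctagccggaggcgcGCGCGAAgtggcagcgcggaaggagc
Mcm7: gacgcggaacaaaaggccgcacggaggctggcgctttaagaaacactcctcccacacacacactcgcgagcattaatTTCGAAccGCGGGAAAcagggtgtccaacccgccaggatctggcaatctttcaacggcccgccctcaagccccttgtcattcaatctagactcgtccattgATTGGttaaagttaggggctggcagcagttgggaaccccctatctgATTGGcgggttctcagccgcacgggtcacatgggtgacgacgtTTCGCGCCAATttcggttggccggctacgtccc
Hmgb2 held 2 matches to the homology region and 4 CCAAT boxes, and Ube2c held 1 and 6, with 0 E2F matches in either. Mcm6 held 5 E2F matches, several of them overlapping, and no homology region, and Mcm7 held 4 E2F matches and 1 homology region. Over the mitotic and spindle lists, 48 of 58 genes had a promoter in the table, and 81.2% of them held the homology region, against 21.7% of all 27025 genes. A CCAAT box was found in 77.1% of them against 41.1% of all genes, and both elements in 70.8% against 9.65%. Over the licensing and replication lists, 33 of 41 genes were matched, of which 66.7% held E2F letters against 11.6% of all genes, while the homology region was found in 21.2%. The sets overlapped in their letters, since 63.6% of the licensing and replication promoters also held a CCAAT box and 20.8% of the mitotic and spindle promoters also held E2F letters. Of the 6 rule genes, 4 were matched. Mki67 and Top2a held the homology region, and Mki67 and Nusap1 the E2F letters. These are matches of letters and show no binding.

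Before any comparison, the libraries differed in how purely the rule selected macrophages. Of the 96 Vehicle members, 14 (14.6%) carried at least 2 marker genes of T and NK cells, conventional dendritic cells, neutrophils, basophils and mast cells, B and plasmacytoid cells or endothelium, against 6 of 309 (1.94%) in Matrigel-only and 6 of 321 (1.87%) in Palo. The T and NK list gave 8 of these Vehicle cells, and its 11 genes summed to 331 CPM (counts per 1000000 UMIs of the same cells) in Vehicle members, with Trbc2 the most abundant at 73.9 CPM, against 46.2 CPM in Matrigel-only and 2.97 CPM in Palo. Chondrocyte genes summed to 689 CPM in Vehicle members, led by Col2a1 at 381 CPM, and to 0.953 and 2.60 CPM in Matrigel-only and Palo, with 5 Vehicle members holding at least 2 of the 5 genes. Stroma markers, led by Sparc, summed to 135, 463 and 183 CPM in Matrigel-only, Vehicle and Palo.

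Single cells carried some of this signal. In Vehicle members 1 cell held 99.6% of the 1359 UMIs of Hbb-bs, a beta globin, and 1 cell all 146 UMIs of the keratin Krt5. The macrophage side was also weaker, since 15 of 96 Vehicle members had only 2 of the 5 macrophage genes, against 9 of 309 and 7 of 321. A stricter set was therefore formed after these values were seen, with at least 4 of the 5 macrophage genes and fewer than 2 markers of any of 8 other classes, chondrocytes and erythroid cells included. It kept 260 Matrigel-only, 58 Vehicle and 286 Palo members, a loss of 39.6% in Vehicle against 15.9% and 10.9%. Values in the stricter set stand beside the main results that rest on the Vehicle members, and single genes with no such value are given for the full set. Libraries shared 19 barcodes between Vehicle and Matrigel-only, 21 between Palo and Matrigel-only and 11 between Vehicle and Palo, and no barcode was a member in both libraries of a pair.

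The label held for the marker genes. Mki67, the proliferation antigen Ki-67 (chromosome 7, 135689784 to 135716361, minus strand, mm10), stood at 725 CPM in Matrigel-only, 547 CPM in Vehicle and 725 CPM in Palo members, against 14.8, 12.0 and 16.5 CPM in other macrophages. Top2a, the topoisomerase that untangles replicated DNA (chromosome 11, 98992943 to 99024189, minus strand), stood at 897, 735 and 661 CPM against 7.98, 6.31 and 5.45 CPM. These genes chose the members, so their difference is no finding. Csf1r, the receptor for colony-stimulating factor 1, was at 632, 454 and 638 CPM in members and 987, 709 and 854 CPM in other macrophages. Of the 13 further macrophage genes, among them Spi1, Tyrobp and Fcer1g, none was at 0 in the members of any library, and their sum was 12252, 8530 and 12859 CPM in Matrigel-only, Vehicle and Palo members. In the stricter set the Vehicle sum was 11135 CPM, against 13038 and 13447 CPM.

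Fewer macrophages were cycling in Vehicle implants than in the other libraries. The share was 5.05% of 6113 macrophages in Matrigel-only (exact 95% interval 4.52 to 5.63%). It was 2.86% among the 3361 Vehicle macrophages, with an interval of 2.32 to 3.48%. Palo gave 5.50% of 5834 macrophages, with an interval of 4.93 to 6.12%. Vehicle minus Palo was -2.65 percentage points with a Newcombe interval of -3.45 to -1.81, and Vehicle minus Matrigel-only -2.20 points (-2.97 to -1.39). The Palo and Matrigel-only shares differed by 0.447 points (-0.355 to 1.25), an interval that holds 0. In the stricter set the shares were 6.04%, 2.901% and 6.12%.

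A share of cells with detected genes depends on depth, and members were deeper than other macrophages, with medians of 6399, 9625 and 7938 UMIs against 2980, 3569 and 4139 in Matrigel-only, Vehicle and Palo. Each cell was therefore thinned to a fixed number of UMIs. At 1300 UMIs, which left out 528, 257 and 131 macrophages, the shares were 3.09%, 1.35% and 2.87%. At 3000 UMIs, which left out 2954, 1312 and 1290, they were 7.45%, 3.05% and 5.22%. Vehicle was below both other libraries at both depths, with Vehicle minus Palo at -1.53 points (-2.11 to -0.907) for 1300 UMIs and -2.17 points (-3.12 to -1.13) for 3000 UMIs. The order of Palo and Matrigel-only did not hold over depths: the difference was -0.212 points at 1300 UMIs (-0.844 to 0.417) and -2.22 points at 3000 UMIs (-3.37 to -1.12). The values at 3000 UMIs cover only the deeper macrophages, 3159 of 6113 in Matrigel-only and 4544 of 5834 in Palo. Because members were deeper than other macrophages, leaving out shallow cells changes the share itself. The part of this in the difference was not tested.

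Stromal cells, the cells with at least 1% of their UMIs from the 5 stromal genes, had Vehicle highest instead. Thinned to 3000 UMIs, 11.3% of Vehicle stromal cells met the same cycle criterion, against 7.08% in Matrigel-only and 8.40% in Palo, and Vehicle exceeded Palo by 2.91 points (0.526 to 5.27). At 1300 UMIs the stromal difference between Vehicle and Palo was 1.14 points (-0.667 to 2.91), an interval that holds 0.

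**Figure D1:**
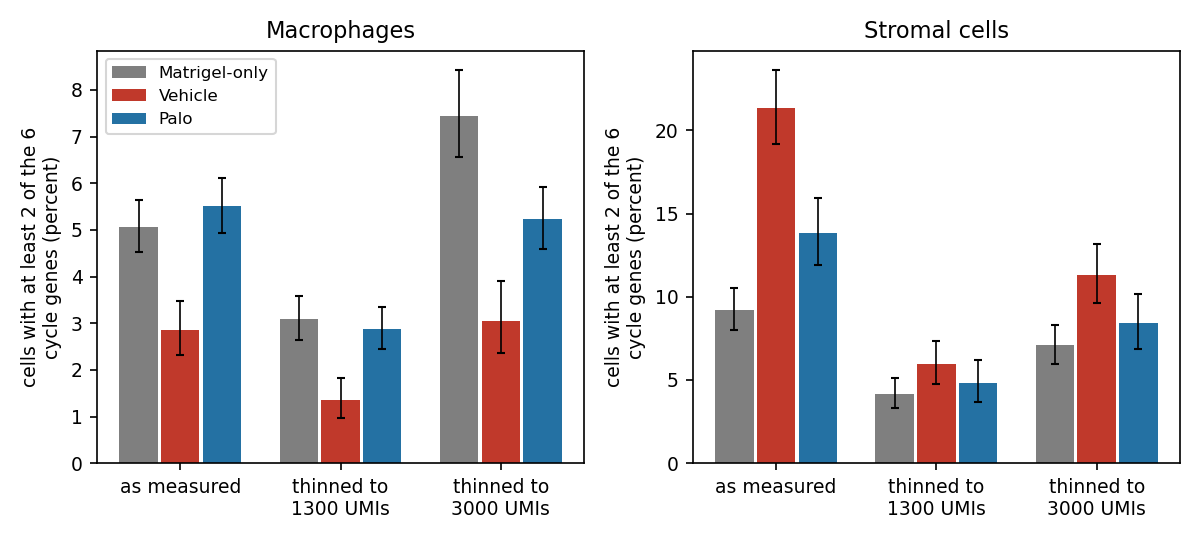
Percent of macrophages (left) and of stromal cells (right) with at least 2 of the 6 cycle genes, as measured and after thinning each cell to 1300 or 3000 UMIs; bars are the 3 libraries and lines are exact 95% intervals for counting error. The Vehicle bar is the lowest among macrophages in all 3 settings (2.86%, 1.35% and 3.05%) and the highest among stromal cells.

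The threshold cut a graded series. With exactly 2 cycle genes, just inside the rule, there were 86 Matrigel-only, 34 Vehicle and 100 Palo cells, and with exactly 1, just outside it, 451, 260 and 591. The cells with 6 genes numbered 32, 9 and 38. Summed levels of the G2/M lists, whose 58 genes are not rule genes, were 1313 CPM in Matrigel-only macrophages with 0 cycle genes, 2277 CPM with 1, 5896 CPM with 2 and 14010 CPM with 3. In Vehicle these levels were 1459, 1698, 3529 and 10297 CPM, and in Palo 968, 1661, 4697 and 11883 CPM. In CPM the step was therefore larger between 2 and 3 genes than between 1 and 2. As a ratio, the step from 1 to 2 genes was the larger in Matrigel-only and Palo. For the 41 S-phase genes it was different. From 0 to 3 genes Vehicle stood at 451, 569, 2112 and 3574 CPM and Palo at 413, 701, 2330 and 2887 CPM. Matrigel-only stood at 491, 1029, 3336 and 3551 CPM. Most of the step was already at 2 genes in Matrigel-only and Palo. In Vehicle the steps in CPM from 1 to 2 and from 2 to 3 genes were nearly equal, while as a ratio the first was larger.

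**Figure D2:**
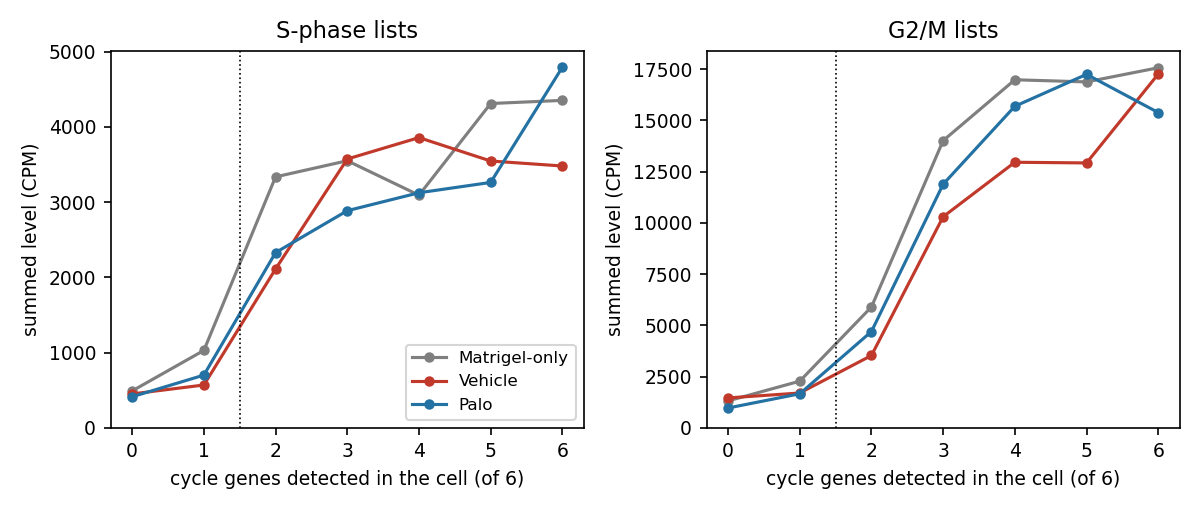
Summed level in CPM of the S-phase lists (left, 41 genes) and the G2/M lists (right, 58 genes) in macrophages grouped by how many of the 6 cycle genes were detected; lines are the 3 libraries and the dotted line marks the threshold between 1 and 2 genes. Levels are low at 0 and 1 gene, and the G2/M lists reach 10297 to 14010 CPM at 3 genes.

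Cycling macrophages were then compared with the other macrophages of the same library. The rule used this contrast, so the ratios are a description. CPM is a share of the UMIs of a class, and members held more UMIs per cell. A lower CPM in members therefore need not mean fewer transcripts per cell. Of 6786 genes with a mean of at least 20 CPM in either class, 5.25% were at least 2-fold higher in all 3 libraries and 0.206% at least 2-fold lower, on the scale of log2(CPM + 5). The genes of the licensing list, which mark and open origins of replication, were all in the higher group, 22 of 22. Their sum was 1719, 1623 and 1546 CPM in Matrigel-only, Vehicle and Palo members, against 258, 222 and 231 CPM in other macrophages. Mcm6 was at 205, 207 and 172 CPM against 32.1, 29.3 and 26.2 CPM. Uhrf1, which carries DNA methylation through replication, was at 129, 133 and 112 CPM against 5.79, 5.29 and 4.98 CPM.

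All 19 replication genes were at least 2-fold higher as well. Pcna, the sliding clamp of the polymerases, was at 277 CPM in Matrigel-only members, 152 CPM in Vehicle and 131 CPM in Palo, against 66.2, 50.9 and 44.1 CPM in other macrophages. It was therefore highest in Matrigel-only in both classes. Rrm2, the regulated subunit of ribonucleotide reductase, was nearly equal among libraries at 145, 142 and 140 CPM, against 2.24, 1.88 and 1.73 CPM. Of 14 histone genes 6 reached 20 CPM and 5 of these were at least 2-fold higher. H2afz, a variant histone made throughout the cycle, stood at 1481, 1653 and 1805 CPM against 436, 455 and 560 CPM, and Hist1h1c, a linker histone, was the exception, at 61.0, 44.1 and 64.9 CPM against 88.2, 82.5 and 73.7 CPM. Poly(A)-selected libraries capture replication histones poorly, since most of their transcripts lack a poly(A) tail.

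Outside the rule genes, the mitotic and spindle lists had the highest median log2 ratios. These were 3.66, 3.45 and 3.62 for the mitotic genes and 3.76, 3.48 and 3.71 for the spindle genes in Matrigel-only, Vehicle and Palo. By sums the order differed, since the Vehicle log2 ratio was 2.60 for the spindle list, 2.74 for replication and 2.87 for licensing. Of 21 kinases, cyclins and ubiquitin enzymes 20 were tested and 20 were at least 2-fold higher, as were 37 of 37 spindle and kinetochore genes. Ube2c was at 578, 472 and 571 CPM against 6.36, 5.22 and 7.69 CPM. Cdk1, the mitotic kinase, was at 268, 220 and 234 CPM against 6.99, 6.59 and 4.86 CPM, and Ccna2, a cyclin of S and G2, at 208, 159 and 185 CPM against 1.56, 1.45 and 1.80 CPM. Birc5, survivin of the chromosomal passenger complex, was at 374, 289 and 409 CPM against 6.15, 4.71 and 7.25 CPM. Tuba1b, an alpha tubulin, was far from silent in the other macrophages: it was at 3464, 2454 and 2527 CPM in members and 800, 939 and 485 CPM in other macrophages, and the Vehicle ratio was the smallest, 1.38 on the log2 scale against 2.11 and 2.37.

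The balance of G2/M and S-phase transcripts was then compared among libraries. Of the UMIs of the S-phase and G2/M lists together, 79.2% were G2/M UMIs in Matrigel-only members (exact interval 78.8 to 79.6%), 76.7% in Vehicle (76.0 to 77.4%) and 80.0% in Palo (79.6 to 80.3%). In the stricter set the Vehicle value was 80.5%, so that the lower Vehicle value did not hold without the doubtful cells. Cell by cell the median share was 83.3%, 76.3% and 85.3%, with quartiles of 58.9 and 92.4% in Matrigel-only, 56.4 and 90.5% in Vehicle and 55.7 and 93.4% in Palo. Only 1, 1 and 4 cells lay under 25%, and 194, 50 and 201 lay at or above 75%. These shares do not place the members in a phase. Macrophages with 0 cycle genes had shares of 72.8%, 76.4% and 70.1%, which in Vehicle was nearly that of the members. Much of this was Tuba1b, without which the shares were 74.2%, 71.7% and 76.1% in members and 52.8%, 54.1% and 55.9% in other macrophages. Members with exactly 2 cycle genes, just inside the rule, had lower shares than macrophages with 0, at 63.9%, 62.6% and 66.8%.

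**Figure D3:**
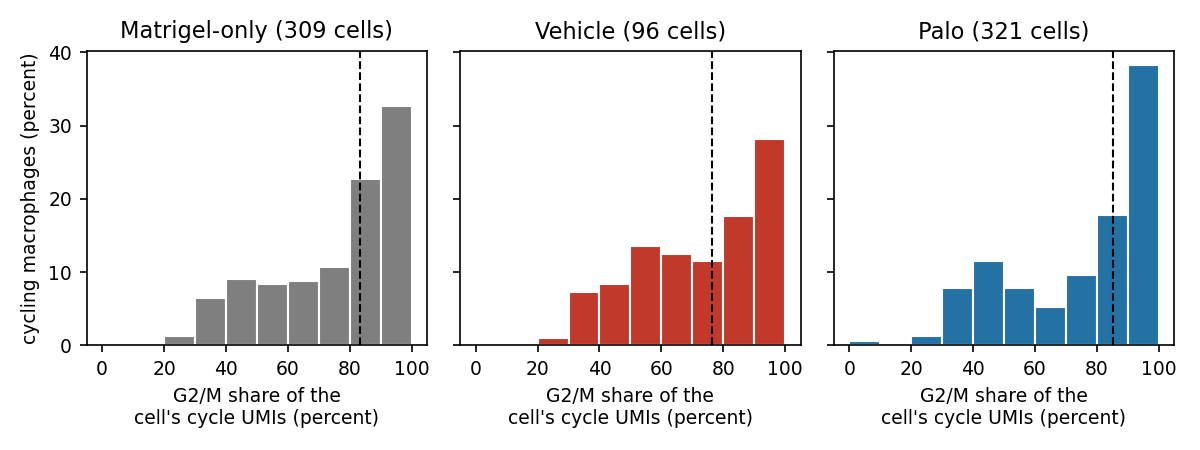
Distribution over cycling macrophages of the share of a cell's cycle UMIs that came from the G2/M lists, in percent, for the 3 libraries; bars are percent of that library's members and dashed lines are medians (83.3%, 76.3% and 85.3%). Each library has most cells above 75% and fewer than 5 cells under 25%.

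The members held only part of the cycle transcripts of all macrophages. With 9.87%, 7.02% and 9.56% of macrophage UMIs in Matrigel-only, Vehicle and Palo, they held 42.5%, 34.6% and 42.7% of the S-phase UMIs and 52.2%, 35.2% and 55.9% of the G2/M UMIs. Over all macrophages, which needs no cycle threshold, the S-phase lists stood at 854 CPM in Matrigel-only, 660 CPM in Vehicle and 709 CPM in Palo, and the G2/M lists at 2655, 2133 and 2160 CPM (Vehicle interval 2110 to 2157, Palo 2143 to 2177). By this measure, with Tuba1b included, Vehicle and Palo were close in G2/M transcripts. However, Tuba1b, which alone was above 400 CPM in all other macrophages, was higher in Vehicle than in Palo in that class. The mitotic list, which lacks Tuba1b, was lower in Vehicle than in Palo in both classes. It summed to 2691 against 3159 CPM in members and 169 against 185 CPM in other macrophages. The G2/M level over all macrophages without Tuba1b was not computed. Tuba1b also counts in the shares of G2/M UMIs held by members given above.

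Genes that open and close the gate into the cycle were mixed. Cdkn2c and Cdkn2d, inhibitors of the cyclin D kinases, were at least 2-fold higher in members of all 3 libraries. Cdkn2c stood at 112, 48.9 and 113 CPM against 8.50, 2.54 and 7.53 CPM, and Cdkn2d at 135, 87.3 and 168 CPM against 37.7, 38.5 and 58.9 CPM. Vehicle members were the lowest for both, also in the stricter set, at 63.9 CPM for Cdkn2c and 98.4 CPM for Cdkn2d against 121 and 167 CPM in Palo. Cdkn1a, the p53-responsive inhibitor p21, was at 266, 312 and 336 CPM against 302, 390 and 270 CPM, so it was lower in members in Matrigel-only and Vehicle and higher in Palo. Cdkn2a, Cdkn2b and Cdkn1c were all under 7 CPM in members.

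Ccnd1, cyclin D1, was at 99.1 CPM in Matrigel-only members, 283 CPM in Vehicle and 98.7 CPM in Palo, against 44.7, 58.4 and 43.8 CPM in other macrophages. The Vehicle members stood apart for this gene and for its partner kinase Cdk6, at 54.3, 117 and 52.7 CPM, and for Ccnd2 at 38.6, 87.3 and 33.0 CPM. Among stricter members Ccnd1 was at 326 CPM in Vehicle, Cdk6 at 95.1 CPM and Ccnd2 at 45.9 CPM, so that of these Ccnd2 lost most of its excess. Rbl1, the p107 pocket protein, was higher in members of all 3 libraries (81.9, 39.3 and 54.9 CPM against 14.8, 12.97 and 11.6 CPM), whereas Rb1 was lower than in other macrophages in Vehicle alone (26.9 against 50.0 CPM). All 14 tested genes of nucleotide and ribosome synthesis were higher in members of all 3 libraries, as were 2725 of all 6786 tested genes, and 3 of the 14 were at least 2-fold higher. Ran, the GTPase of nuclear transport and spindle assembly, was at 691, 902 and 648 CPM against 199, 280 and 186 CPM.

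Outside the lists, 10 genes had the most even excess in members. Pclaf, a PCNA-associated factor, was at 322, 274 and 319 CPM against 5.74, 3.19 and 5.61 CPM. Lmnb1, lamin B1 of the nuclear envelope, was at 242, 164 and 188 CPM against 10.4, 15.3 and 9.06 CPM, and Ezh2, the methyltransferase of Polycomb complex PRC2, at 142, 150 and 148 CPM against 24.1, 19.9 and 20.2 CPM. Cdca3, Kif15, Tacc3, Pttg1, Atad2, Tmpo and Cbx5 completed the 10, with log2 ratios from 2.22 to 4.38.

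Among genes lower in members, Apoe, the lipid carrier apolipoprotein E, had the largest even deficit, at 4037, 1943 and 3973 CPM in members against 14313, 8089 and 13184 CPM in other macrophages. Ccl8, a chemokine, was at 1007, 826 and 622 CPM against 2818, 5270 and 1403 CPM. H2-Eb1, an MHC class II beta chain, was at 1731, 388 and 1796 CPM against 4048, 1090 and 4023 CPM. Hal, Slfn5, Ypel3, Saa3, Ptafr, Clec2d and Mpeg1 were the other genes of this group, with log2 ratios from -0.98 to -2.38.

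**Figure D4:**
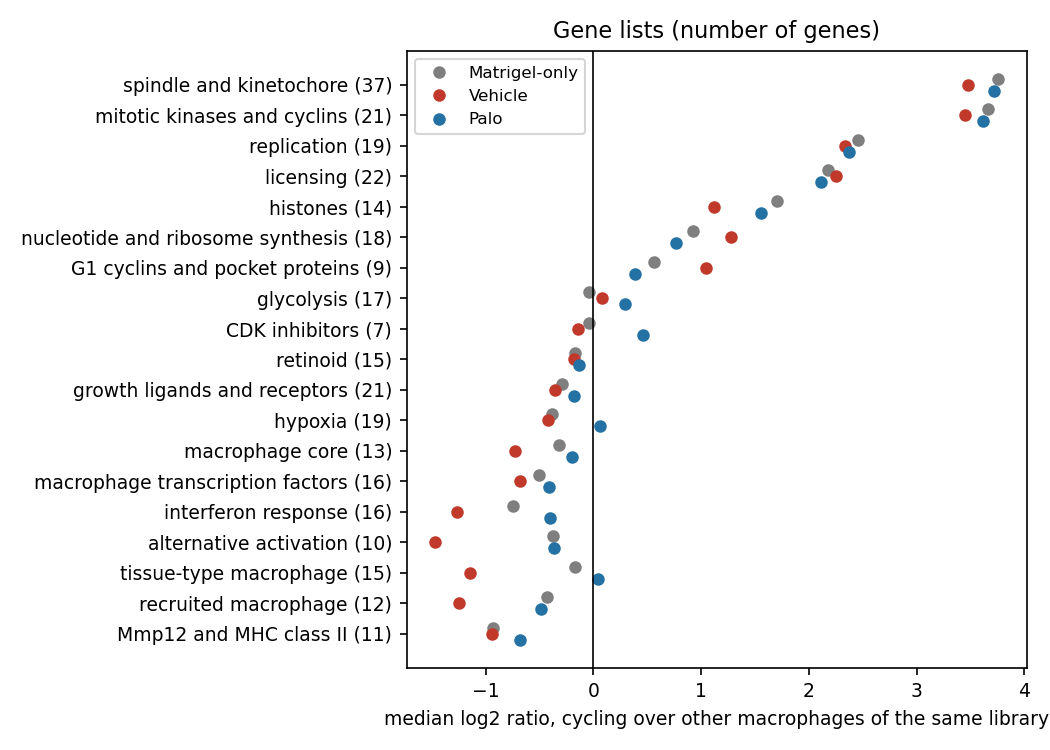
Median log2 ratio over each gene list, cycling over other macrophages of the same library, on the scale of log2(CPM + 5); dots are the 3 libraries and the number of genes is in brackets. Leaving aside the rule genes and markers of other cell types, the spindle, mitotic, replication and licensing lists lie farthest right in all 3 libraries. For the tissue-type, recruited, interferon and alternative activation lists the Vehicle dot lies farther left than the others.

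By list, 12 of 13 macrophage core genes, 12 of 13 tested transcription factors, 13 of 15 tested interferon response genes and 9 of 11 genes of the Mmp12 and MHC class II list were lower in members of all 3 libraries, against 1816 of all 6786 tested genes. Maf, a transcription factor of mature macrophages, was at 934, 394 and 473 CPM against 1097, 1008 and 558 CPM. Myc was the only transcription factor of the list higher in all 3 libraries, at 19.5, 36.5 and 20.8 CPM against 14.1, 17.5 and 15.1 CPM, and was named after its values were seen; its Matrigel-only interval, -0.04 to 0.94 on the log2 scale, holds 0. Cd74, the invariant chain of MHC class II, was at 6040, 6829 and 8678 CPM against 11524, 11586 and 16799 CPM.

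For growth ligands and receptors, 11 of 14 tested genes were lower in CPM in members of all 3 libraries, Csf1r with them. Levels per cell were not compared. The background was again 1816 of all 6786 tested genes. Csf2ra, a receptor chain for GM-CSF, was at 227, 178 and 333 CPM against 257, 181 and 371 CPM, close to the other macrophages. Il4ra, the receptor for interleukin 4, was at 385, 240 and 341 CPM against 473, 616 and 340 CPM, lower in Vehicle members than in the other macrophages of that library. Igf1 was at 158, 37.4 and 70.1 CPM against 250, 114 and 111 CPM.

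For the lists of both main macrophage classes, the median ratio of cycling over other macrophages was lowest in Vehicle. Lower in members of all 3 libraries were 6 of 14 tested tissue-type genes and 7 of 10 tested recruited genes. Over all tested genes this was 1816 of 6786. The tissue-type list, 15 genes of resident macrophages, had a median log2 ratio of -0.17 in Matrigel-only and 0.04 in Palo but -1.15 in Vehicle, and its sum was 12431 CPM in Matrigel-only members, 4757 CPM in Vehicle and 8571 CPM in Palo, against 16197, 13710 and 9732 CPM in other macrophages. Mrc1, the mannose receptor, was at 2041, 1032 and 1460 CPM in members and 2110, 2337 and 1294 CPM in other macrophages. Lyve1, the hyaluronan receptor, was at 171, 10.6 and 111 CPM in members and 137, 39.6 and 71.5 CPM in other macrophages. Cd163, the scavenger receptor for haemoglobin, was at 94.3, 64.3 and 55.6 CPM against 121, 295 and 89.8 CPM. Lyve1 thus ran above the other macrophages in Matrigel-only and Palo and below them in Vehicle.

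The recruited list had medians of -0.44, -1.25 and -0.49. By sums its log2 ratios were -0.69, -0.39 and -0.61, so Vehicle had the smallest deficit. Chil3, a chitinase-like protein of monocytes and alternative activation, was counted only 2 times in Vehicle members, or 1.92 CPM, while the other Vehicle macrophages had 111 CPM. S100a4, a calcium-binding protein of motile cells, went the other way, at 1116, 2416 and 1331 CPM in members against 722, 1792 and 973 CPM. In the stricter set the Vehicle median was -0.98 for the tissue-type list and -1.23 for the recruited list. The recruited sums in that set were 6586 CPM in Vehicle members and 6831 CPM in other macrophages, so the lower median was not matched by the sum. The summed log2 ratios there were -0.61, -0.053 and -0.57 in Matrigel-only, Vehicle and Palo. In summed UMIs, fewer cells of a type and less RNA per cell cannot be told apart.

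The conditions were then compared within the cycling macrophages. At 20 CPM or more in either library, 5.21% of 7020 genes were at least 2-fold higher and 2.39% at least 2-fold lower in Vehicle than in Palo, 4.97% and 3.83% of 7183 in Vehicle than in Matrigel-only, and 0.474% and 0.636% of 6756 in Palo than in Matrigel-only. With the stricter members these were 3.29% higher and 2.54% lower for Vehicle over Palo, and 3.34% higher and 4.04% lower for Vehicle over Matrigel-only, so part of the higher genes in Vehicle came with the doubtful cells and the balance against Matrigel-only turned. Without any 2-fold limit, 5793 of 10231 genes were higher in Vehicle than in Palo members and 4996 of 10296 in Vehicle than in Matrigel-only. In Palo over Matrigel-only members 3611 of 9834 were higher. These shares are the background for counts by list in the full set of members below. No such share is given for other macrophages or stricter members. The comparisons with Vehicle share its library and rest on 96 cells. For the licensing, replication, mitotic and spindle lists no gene was at least 2-fold apart in Vehicle over Palo, unlike the G1 cyclins and CDK inhibitors given above, where 3 of 9 G1 genes were at least 2-fold higher and 1 of 4 inhibitors at least 2-fold lower, or 1 of 9 and 0 of 4 among the stricter members. Of the 58 G2/M genes 37 spindle genes had a median log2 ratio of -0.37 and 21 mitotic genes of -0.22 in Vehicle over Palo, and the licensing and replication lists had medians of -0.05 and -0.09.

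Oxygen-responsive genes were higher in Vehicle. The hypoxia list, 19 genes induced by hypoxia-inducible factors, had a median log2 ratio of 0.88 in Vehicle over Palo, with 17 of 19 genes higher and 8 of them at least 2-fold, against a median of 0.08 over all genes. Its sum was 1002 CPM in Matrigel-only members, 1432 CPM in Vehicle and 880.1 CPM in Palo. Higd1a, a mitochondrial protein induced in hypoxia, was at 164, 303 and 152 CPM, and Bnip3, a mitophagy receptor, at 79.1, 123 and 50.8 CPM. Among the stricter members Higd1a was at 179 CPM in Vehicle and 153 CPM in Palo members, so most of its excess came with the doubtful cells, while Bnip3 was at 105 and 53.4 CPM. Ndrg1 was lower in Vehicle than in Palo members (126, 103 and 152 CPM), although it was higher in the other macrophages of Vehicle (205, 286 and 144 CPM).

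In the other macrophages the same list had a median of 1.16. The stricter members had a median of 0.52, and 3 of 14 tested genes were at least 2-fold higher, against 3.29% of all tested genes. Vehicle over Matrigel-only gave 0.63 in members and 0.57 in other macrophages. Palo over Matrigel-only gave -0.17 in members, with 13 of 19 genes lower, and -0.59 in other macrophages. The 2 classes were not tested against each other.

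Glycolytic enzymes followed with smaller ratios. Of 17 genes 16 were higher in Vehicle than in Palo members (median 0.47), and 16 than in Matrigel-only (median 0.62), while Palo over Matrigel-only had a median of 0.13 with 10 higher. Ldha, lactate dehydrogenase A, was at 838, 1465 and 1056 CPM in Matrigel-only, Vehicle and Palo members, and Pgk1, phosphoglycerate kinase, at 701, 1037 and 732 CPM. Eno1, enolase, was the exception in pattern, at 60.0, 239.9 and 233 CPM, so that Palo and Vehicle were alike and both above Matrigel-only. In the stricter members the Vehicle over Palo median was 0.39.

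Nucleotide and ribosome synthesis was the list in which the members of Vehicle exceeded those of Palo throughout, with 18 of 18 genes higher. The median was 0.79, against 0.25 in other macrophages. Npm1, nucleophosmin of the nucleolus, was at 656, 1417 and 644 CPM in Matrigel-only, Vehicle and Palo members, and Ncl, nucleolin, at 456, 863 and 454 CPM. Npm1 was nearly equal among libraries in other macrophages, at 543, 624 and 581 CPM. In the stricter members not every gene was higher, and the median was 0.66. Vehicle over Matrigel-only gave a median of 0.66 with 16 of 18 higher.

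For interferon response genes the classes were not tested against each other, and their values stand side by side. In the other macrophages the median of Vehicle over Palo was 1.20. In members it was 0.18, with 9 of 16 genes higher, and in the stricter members 0.43. The summed level of the list was slightly lower in Vehicle than in Palo members, by a log2 ratio of -0.04 (-0.12 to 0.03), so median and sum differ in sign there. Isg15, a ubiquitin-like protein induced by interferon, was at 37.6, 62.4 and 54.2 CPM in members and 58.5, 160 and 55.02 CPM in other macrophages.

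**Figure D5:**
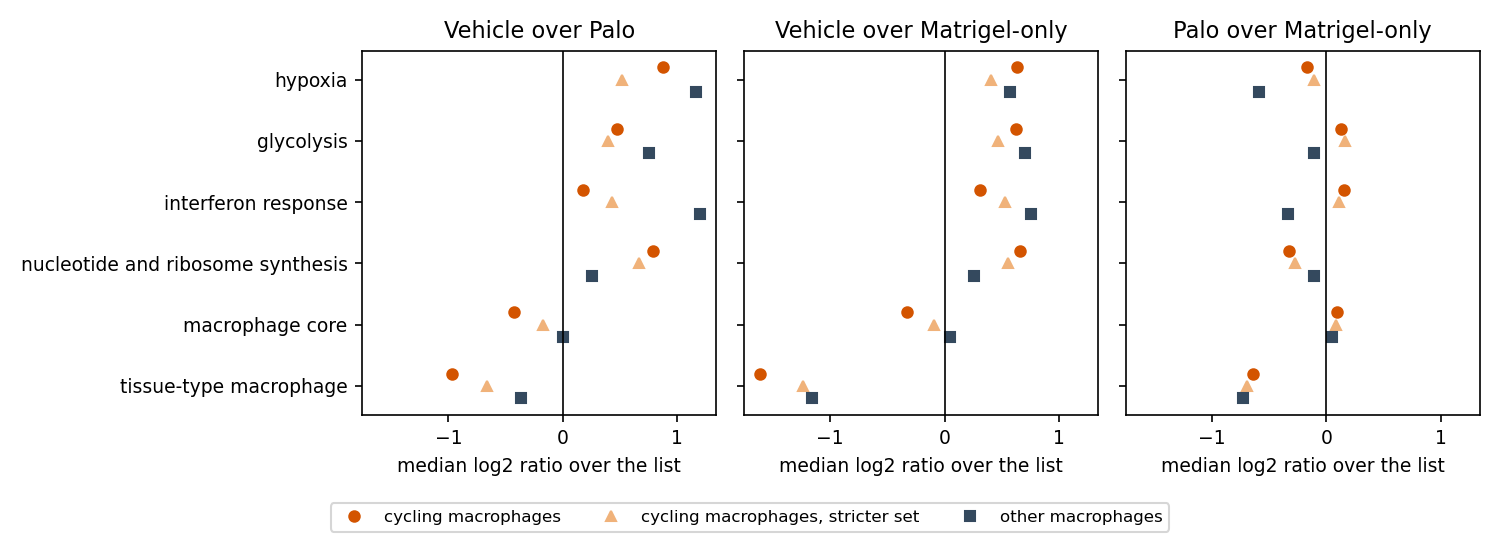
Median log2 ratio of CPM with 5 added over 6 gene lists for the 3 pairs of libraries; circles are cycling macrophages, triangles the stricter set of cycling macrophages and squares other macrophages. In Vehicle over Palo the hypoxia, glycolysis and interferon lists lie farther from 0 in other macrophages (1.16, 0.75 and 1.20) than in cycling macrophages (0.88, 0.47 and 0.18), and the nucleotide list lies farther from 0 in cycling macrophages.

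Tissue-type genes were lower in Vehicle members than in those of Palo, with 12 of 15 genes lower (median -0.97 and -0.67 in the stricter set), and lower than in Matrigel-only with 13 of 15 (median -1.61, and -1.24 in the stricter set). Palo members were between the others, with 13 of 15 genes below Matrigel-only and a median of -0.64. F13a1, the coagulation factor XIII A subunit, was at 2078, 397 and 1246 CPM in Matrigel-only, Vehicle and Palo members. Gas6, a ligand that bridges dying cells to phagocytes, was at 525, 74.9 and 272 CPM, and Selenop, a selenium carrier, at 1821, 379 and 1133 CPM. Ms4a7, Ccl8 and Cd163 went the other way and were higher in Vehicle than in Palo members. Ms4a7 was highest in Vehicle, at 248, 485 and 330 CPM, and at 285, 711 and 363 CPM in the stricter set. Ccl8 was at 826 CPM in Vehicle against 622 CPM in Palo, and Cd163 at 64.3 against 55.6 CPM. In other macrophages the median for Vehicle over Palo was -0.37 but the sum was higher in Vehicle, by 0.49 on the log2 scale, so median and sum differ in sign there.

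Retinoid genes include known targets of the receptors that palovarotene acts on. Of 15 genes, Vehicle over Palo, the pair that differs in the drug, had 9 higher and 4 lower with a median of 0.15, while the sum was lower in Vehicle by a log2 ratio of -0.19 (-0.37 to -0.01), so median and sum differ in sign. Of the 6 tested, 1 was at least 2-fold higher and 1, Dhrs3, at least 2-fold lower. Among the stricter members Dhrs3 was at 144 CPM in Vehicle and 234 CPM in Palo, under 2-fold, and the direction of the counts turned, with 3 higher and 8 lower and a median of -0.01. Over the same 15 genes, Palo over Matrigel-only had 7 higher and 4 lower with a median of 0.00, and 0 of the 4 tested were 2-fold apart. Dhrs3, a retinaldehyde reductase induced by retinoic acid, was highest in Palo members, at 161, 105 and 224 CPM in Matrigel-only, Vehicle and Palo. Rarg, the receptor that palovarotene binds, was at 14.8, 21.1 and 18.5 CPM. Tgm2, a transglutaminase induced by retinoids in many cells, was at 5.24, 48.0 and 19.7 CPM and was therefore highest in Vehicle, as it was in other macrophages (7.04, 125 and 12.0 CPM).

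Among single genes, the 10 highest in Vehicle over Palo included Hbb-bs, Hba-a1, Hbb-bt, Krt5, Krt14, Col2a1, Col11a1 and Acan, genes of red blood cells, keratinocytes and cartilage. A single cell held a large part of each, with 99.1% of the Hba-a1 UMIs, 99.8% of Hbb-bt, 99.3% of Krt14, 80.6% of Col2a1, 64.3% of Col11a1 and 46.0% of Acan in its top cell, and in the stricter set Col2a1 was at 8.20 CPM and Krt5 at 0. Pmepa1, an inhibitor of TGF-beta and BMP signalling that is induced by them, was at 243 CPM in Vehicle, 21.5 CPM in Palo and 18.6 CPM in Matrigel-only members, in 49, 39 and 29 cells, and at 277, 23.99 and 20.1 CPM in the stricter set. Spp1, osteopontin, named against Matrigel-only, was at 255, 8.10 and 66.4 CPM in Vehicle, Matrigel-only and Palo.

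Among the genes lower in Vehicle than in Palo members, C4b, complement component 4, was at 14.4 CPM against 193 CPM and at 261 CPM in Matrigel-only. Cxcl2, a neutrophil chemokine, was at 46.1 against 343 and 284 CPM, and Cbr2, a carbonyl reductase of resident macrophages, at 114 against 605 and 996 CPM. Fcrls, an Fc receptor-like protein, was at 405 against 1508 and 1182 CPM. Stricter members gave Vehicle and Palo values of 18.03 and 213 CPM for C4b, 49.2 and 340 CPM for Cxcl2, 177 and 662 CPM for Cbr2 and 508 and 1579 CPM for Fcrls. Saa3 was at 1.92 against 106 and 31.0 CPM, but 1 Palo cell held 46.3% of its UMIs there. Wfdc17, Tpm3-rs7, Pmp22, H2-Eb1 and Lyve1 completed the group. Against Matrigel-only, Clec10a, a lectin of alternatively activated cells, was at 74.9 CPM in Vehicle, 461 CPM in Matrigel-only and 128 CPM in Palo, and Cd209f, another lectin, at 0.960, 155 and 42.3 CPM.

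Palo and Matrigel-only members differed least. The highest in Palo were Eno1 (233 against 60.0 CPM), Trem2, a lipid receptor of macrophages (315 against 88.1 CPM), Mmp12, macrophage elastase (198 against 52.9 CPM), and Ubb, a ubiquitin precursor (620.1 against 225 CPM). Lpl, lipoprotein lipase, was at 657 against 294 CPM and Cx3cr1, the fractalkine receptor, at 118 against 44.8 CPM. Trem2 was nearly as high in Matrigel-only as in Vehicle members (108 CPM), whereas Cx3cr1 was highest in Vehicle (182 CPM). Rpl35, Tmsb10, Apobec1 and Saa3 were the others. Lowest in Palo were Clec10a, Cd209f and Fcna, a ficolin (33.8 against 122 CPM), followed by Fxyd2, Plac8, Ednrb, Tmem14c, Igf1, Pcna and Tmem8, all at least 0.97 lower on the log2 scale with 20 CPM added.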

How the data were processed

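Single cells of dispase-digested implants were captured on the 10x platform, with 1 library for each of the 3 conditions. The authors deposited raw UMI counts per gene and barcode, 31053 features a library on build mm10, and the submitters' processing notes name Cell Ranger 3.0.2 and Seurat 3. The deposited counts summed to 44252421 for the Matrigel-only library, 46317250 for Vehicle and 46901673 for Palo. Gene positions came from GENCODE vM21 and promoters from RefSeq.

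From these counts, cells were kept and chosen by the rule given above, UMIs were summed per library and class, and CPM was computed on the sums, with the 36 repeated symbols merged. Log2 ratios had 5 CPM added to each side, or 20 CPM for choosing named genes. A gene was compared from 20 CPM in either side. Shares have exact binomial (Clopper-Pearson) 95% intervals, ratios of counts conditional binomial ones and differences of shares Newcombe ones, all for counting error only. UMI counts at transcript ends do not scale with gene length. With 1 library per condition no p-value was computed.

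The members and the gene lists were chosen with earlier results of these data known. Named genes were the rule genes, up to 6 of highest level in each list or any gene of lists of up to 10, the 10 highest and 10 lowest outside the cycle lists by the smallest ratio over libraries at 100 CPM or more, and the 10 largest each way between conditions at 100 CPM or more in 1 library. Myc was added after its values were seen. Some genes that this rule names are not reported here. Doublets were not removed. Scrublet, in scanpy 1.11.5, marked 33 Matrigel-only, 10 Vehicle and 36 Palo members (10.7%, 10.4% and 11.2%), against 7.34%, 4.67% and 6.21% of all cells scored. Scripts were tested on simulated data and used Python 3.11.15, numpy 2.4.6, scipy 1.17.1, pandas 2.3.3, matplotlib 3.10.9 and R 4.3.3 with edgeR 4.0.16 for TMM factors only.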

Additional observations from a re-analysis of the deposited data

Results flagged for a closer look

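In 3 gene lists the summed level differed by a log2 ratio of at least 0.25 on each side between Vehicle and Palo in opposite directions in cycling and other macrophages, and none of these differences was tested. With a smaller ratio on at least 1 side, cycling and other macrophages also had opposite signs for the alternative activation (-0.21 and 0.16), retinoid (-0.19 and 0.16), growth ligand and receptor (-0.41 and 0.03), interferon response (-0.04 and 0.14), spindle (-0.24 and 0.60) and licensing (0.07 and -0.06) lists. The spindle list holds Tuba1b, which was higher in Vehicle than in Palo in other macrophages, and its ratio without that gene was not computed. For the CDK inhibitors the log2 ratio of Vehicle over Palo was -0.45 in cycling macrophages and 0.35 in other macrophages, and -0.43 and 0.36 in the stricter set. Cdkn1a, its most abundant gene, was at 312 CPM in Vehicle and 336 CPM in Palo members, against 390 and 270 CPM in other macrophages, and without it the ratios were -0.88 and -0.20, with 1 sign. For the tissue-type macrophage genes the ratio was -0.85 in cycling and 0.49 in other macrophages, and -0.40 and 0.60 in the stricter set. Ccl8 carried the positive ratio, at 5270 CPM in Vehicle and 1403 CPM in Palo other macrophages. Without it the ratios were -1.02 and 0.02, and the median over the list in other macrophages was -0.37, the sign of the cycling macrophages. For the macrophage transcription factors it was -0.32 in cycling and 0.29 in other macrophages. In the stricter set the transcription factor ratio was -0.02 in cycling macrophages, with an interval of -0.10 to 0.05 that holds 0, and 0.31 in other macrophages. The part that other cell types among the Vehicle members have in these values was not tested beyond the stricter set.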

How the results depend on the processing

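Of 240 values recomputed under alternatives, 213 stayed within their error of the reported value and 27 moved beyond it. The sign differed from that reported in 5, namely Palo minus Matrigel-only at both thinned depths (-0.212 and -2.22 points) and the Palo tissue-type median in 3 settings (-0.13, -0.053 and -0.038), where the reported values, 0.447 points and 0.04, were near 0. For medians over lists that error was the median half-width of the genes' counting intervals, which is wide. The 72 values for the hypoxia and glycolysis lists stayed within it, although the hypoxia median of Vehicle over Palo was 0.88 as reported and 0.52 in the stricter set, and the genes at least 2-fold higher 8 of 17 and 3 of 14. The stricter set and thinning to 3000 UMIs were chosen after seeing the data. The share of cycling macrophages in Matrigel-only, Vehicle and Palo was 3.65%, 1.84% and 3.79% with at least 3 of the 6 cycle genes, and 3.09%, 1.35% and 2.87% at 1300 UMIs, both of which admit fewer cells by construction. It was 7.45% in Matrigel-only at 3000 UMIs, and 6.04% and 6.12% in Matrigel-only and Palo in the stricter set. Vehicle minus Palo was -1.53 points at 1300 UMIs, Vehicle minus Matrigel-only was -3.14 points in the stricter set and -4.39 points at 3000 UMIs, and Palo minus Matrigel-only was -2.22 points at 3000 UMIs. The G2/M share of cycle UMIs in Matrigel-only, Vehicle and Palo was 81.2%, 78.3% and 81.7% with at least 3 cycle genes and 75.2%, 72.3% and 74.8% as a mean over cells. In Vehicle it was 78.5% without cells carrying markers of 6 other classes and 80.5% in the stricter set. For cycling over other macrophages, the tissue-type median was -0.27 in Matrigel-only and -0.13 in Palo with at least 3 cycle genes, and -0.79 in Vehicle and -0.053 in Palo from mean per-cell CPM. The Mmp12 and MHC class II median in Vehicle was -1.30 with at least 3 cycle genes and -0.52 from mean per-cell CPM. For these list medians the cause was not tested. No paired analysis between conditions was possible because each condition had 1 library. With 96 Vehicle members, single genes of a few CPM could not be compared. Counts of higher and lower genes over whole lists include such genes.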

Other observations

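Retnla, a secreted protein of alternatively activated macrophages, was at 3620 CPM in Matrigel-only, 904 CPM in Vehicle and 2165 CPM in Palo cycling macrophages, against 7145, 788 and 4563 CPM in other macrophages, so the members were lower in Matrigel-only and Palo and higher in Vehicle. In the stricter set it was at 1292 CPM in Vehicle members and 897 CPM in other Vehicle macrophages. H19, an imprinted long RNA, was at 226 CPM in Vehicle and 13.8 CPM in Matrigel-only members, with 41.7% of its Vehicle UMIs in 1 cell, and at 18.03 CPM in Vehicle members of the stricter set.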
